A study of Mus musculus with 6 samples.

Results

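Fatty acid oxidation genes and targets of the peroxisome proliferator-activated receptors (PPARs) were followed as a set of 34 gene symbols in mouse colonic crypts, the epithelial glands of the colon. Members were all probe sets that the platform's annotation assigns to exactly 1 of these symbols, and neither the rule nor the symbols were set by a threshold on these values. The rule found 49 of 22626 probe sets, for 31 of the 12393 genes with a probe set of their own. Acsl1, Acsl3 and Ucp2 had none, and 3 further probe sets that name a member together with a paralog (Acaa1a with Acaa1b, Acot2 with Acot1) were left out. RNA was measured on 6 Affymetrix arrays, 2 per group, each from a pool of crypts from 2 male mice. All mice were heterozygous for Lgr5-lacZ, a reporter allele in the locus of Lgr5, a receptor on stem cells, so no group was free of it. Control and DSS crypts were from the distal colon, and where in the colon the adenomas lay is not given in the sources used here. Control mice drank plain water, and DSS mice drank 1% dextran sulfate sodium, which injures the colonic epithelium, for 2 days. Control and DSS mice were 6 to 8 weeks old. Tumor crypts came from 12 pooled adenomas per array. They were taken 90 days after the carcinogen azoxymethane (AOM, 12.5 mg per kg, given at 6 to 8 weeks), which was followed by DSS cycles of 2%, 1.5% and 1.0%. No group of untreated mice of the tumor mice's age was analysed here, so age, carcinogen, repeated DSS and tumor growth cannot be told apart in the tumor comparison. Pooling leaves no value for a single mouse or adenoma, and p-values measure the spread between pools.

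Beta-oxidation shortens fatty acids in repeated rounds of 4 reactions, a dehydrogenation, a hydration, a 2nd dehydrogenation and a thiolytic cleavage that releases acetyl-CoA. Acyl-CoA synthetases activate the fatty acid, the carnitine shuttle carries long chains into the mitochondrion, and electron transfer flavoprotein passes electrons of the 1st dehydrogenation to the respiratory chain. Short chains such as butyrate, made by gut bacteria and a main fuel of colonocytes, enter without the shuttle. PPARs are nuclear receptors that bind fatty acids and, with retinoid X receptors, activate many genes of this pathway through response elements made of a direct repeat of AGGTCA with 1 base between the copies.

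Because response elements are how PPARs are known to reach these genes, the 250 bases before each RefSeq start site (GRCm38.p6) were searched on both strands for AGGTCA, any 1 base and AGGTCA again, with at most 2 mismatches. Of the 34 symbols, 30 had such a window, 33 windows in all; Acaa2, Acat1, Decr1 and Angptl4 had none. A match was found in 5 of the 33 windows (15.2%) and in 3.24% of all 32851 windows, and an exact match in 0 of 33 and in 0.0335%. Of the 12 windows of members that fell in tumor crypts in the test below, 1 held a match, that of Plin2. The 5 matches are shown in capitals with 15 bases on either side, on the strand of the gene.
Cd36: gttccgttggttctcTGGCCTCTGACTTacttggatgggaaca
Fabp1: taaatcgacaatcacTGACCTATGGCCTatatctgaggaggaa
Plin2: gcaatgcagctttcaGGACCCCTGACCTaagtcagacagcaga
Echs1: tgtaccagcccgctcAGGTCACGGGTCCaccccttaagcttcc
Etfa: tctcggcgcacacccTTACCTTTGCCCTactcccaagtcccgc
These stretches lie at chr5:17835932-17835974 (minus strand) for Cd36, chr6:71199797-71199839 (plus) for Fabp1, chr4:86670257-86670299 (minus) for Plin2, chr7:140116477-140116519 (minus) for Echs1 and chr9:55512293-55512335 (minus) for Etfa, each upstream of the gene's annotated start. Fabp1 held the closest copy, with 1 mismatch, 67 to 55 bases before its start site, and the other 4 had 2 mismatches. A match describes letters in this window and does not show that a receptor binds there. A window without a match does not show that the gene lacks an element, because sequence outside the 250 bases was not searched. The element of NRF-1 (GCGCA, any 1 base and GCGC), a factor known for nuclear genes of mitochondrial proteins, was present in 3 of 33 windows (Etfb, Etfdh and Ppara), or 9.09%, and in 3.74% of all windows.

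Hadha and Hadhb, which encode the subunits of the mitochondrial trifunctional protein, are transcribed away from each other from start sites 273 bases apart. Their upstream windows overlap by 228 bases, and the stretch is shown because it lies upstream of both subunits, of which Hadhb fell in tumor crypts and Hadha did not pass the test. The 250 bases before the Hadhb start (chr5:30155003-30155252, plus strand, GRCm38.p6, between the annotated starts of both genes) hold no match to either element and therefore no capitals.
Hadhb: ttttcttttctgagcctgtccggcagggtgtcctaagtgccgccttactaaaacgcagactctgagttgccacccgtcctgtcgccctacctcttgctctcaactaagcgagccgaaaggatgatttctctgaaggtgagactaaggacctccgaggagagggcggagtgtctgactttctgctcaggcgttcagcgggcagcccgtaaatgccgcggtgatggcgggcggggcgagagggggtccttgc

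Values are signal intensities from MAS5, Affymetrix's probe summary method, in arbitrary linear units. Array medians lay between 94.2 and 131, and 2 arrays per group limit the precision. Over the 7456 genes that entered the fit, Pearson's r of log2 intensities lay between 0.959 and 0.978 within groups. It was 0.983 and 0.986 for same-numbered arrays of control and DSS, and 0.809 to 0.876 where a tumor array was paired with another group's; genes share arrays and are no replicates. The log2 ratio of 3' to 5' actin probe sets, which rises with RNA degradation, was 0.953 and 1.04 in tumor crypts, whereas the other 4 arrays gave 1.20 to 1.63. The crypt label was set against markers: 9 of 9 measured pan-epithelial genes, Epcam and Cdh1 among them, were above the array median on at least 2 arrays, with summed intensities of 72839 to 79368 in control, 77824 to 88822 in DSS and 73676 to 76361 in tumor crypts.

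Of the 31 members measured, 26 were tested, and 5 (Cd36, Fabp1, Acot2, Ppara and Angptl4) lay below the filter, which asked for a value above the array median on at least 2 arrays. Each tested gene is represented by its probe set of highest mean, and changes are differences of log2 (intensity + 17.8), which understate changes of dim genes. Only its tumor values, which were high, took Pdk4 past the filter. In the plot of the tested members by array, tumor arrays lie left of all other arrays for most enzymes, while control and DSS arrays intermix.

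**Figure D1:**
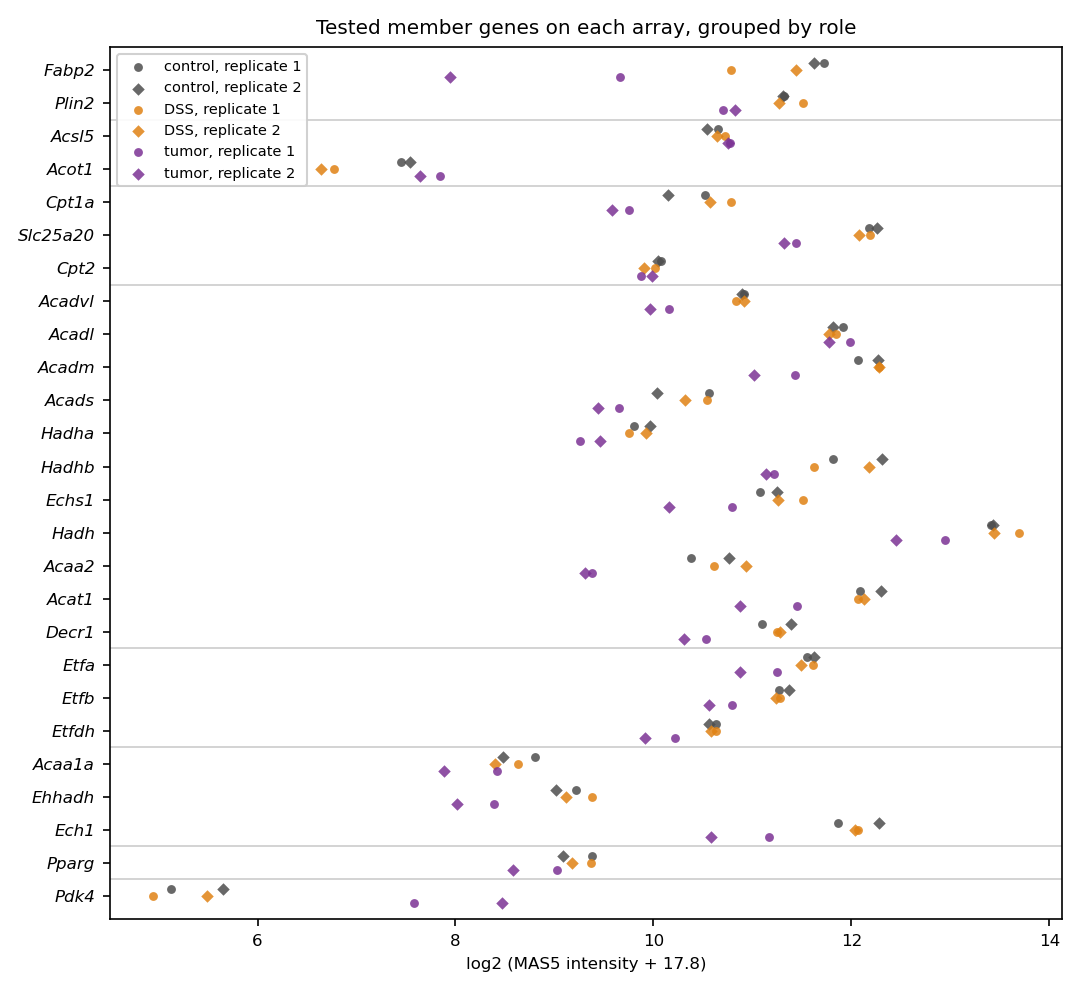
Intensity of the 26 tested members on each of the 6 arrays, as log2 (MAS5 intensity + 17.8) on the x axis, with genes in rows and grey lines between role groups; circles are replicate 1 and diamonds replicate 2. Both tumor arrays lie below all 4 other arrays for 20 genes and above them for Acsl5, Acot1 and Pdk4.

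The first question was how the oxidation pathway differs between adenoma and normal crypts. Fatty acid oxidation genes were mostly lower in tumor crypts: 15 of the 26 tested members fell and 1, Pdk4, rose at an adjusted p under 0.05 (limma, Benjamini-Hochberg over all 7456 genes), which is 61.5% of them. Pdk4 had to be high in tumor crypts to be tested at all, and without such genes 15 of 25 members passed, against 1430 of 7145 genes. Over all genes, 22.5% passed, 9.74% lower and 12.8% higher, and with arrays centred on their medians the share of higher genes among those called went from 56.8% to 34.7%. At an unadjusted p under 0.05 there were 20 members, against 36.6% of all genes. Of the 15 members that fell, 11 lost their call without at least 1 of the arrays, as given with each gene. The members' median log2 change was -0.67, against 0.046 over all genes, and 22 of 26 changes were negative. Groups did not overlap for 25 of the 26, with tumor arrays lower for 22 and higher for 3, against 27.7% of all genes lower and 33.8% higher. The members were chosen with earlier results of these data known, so these shares describe them and are not a test of the set. In a bulk sample, fewer cells of a type and less RNA per cell cannot be told apart.

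**Figure D2:**
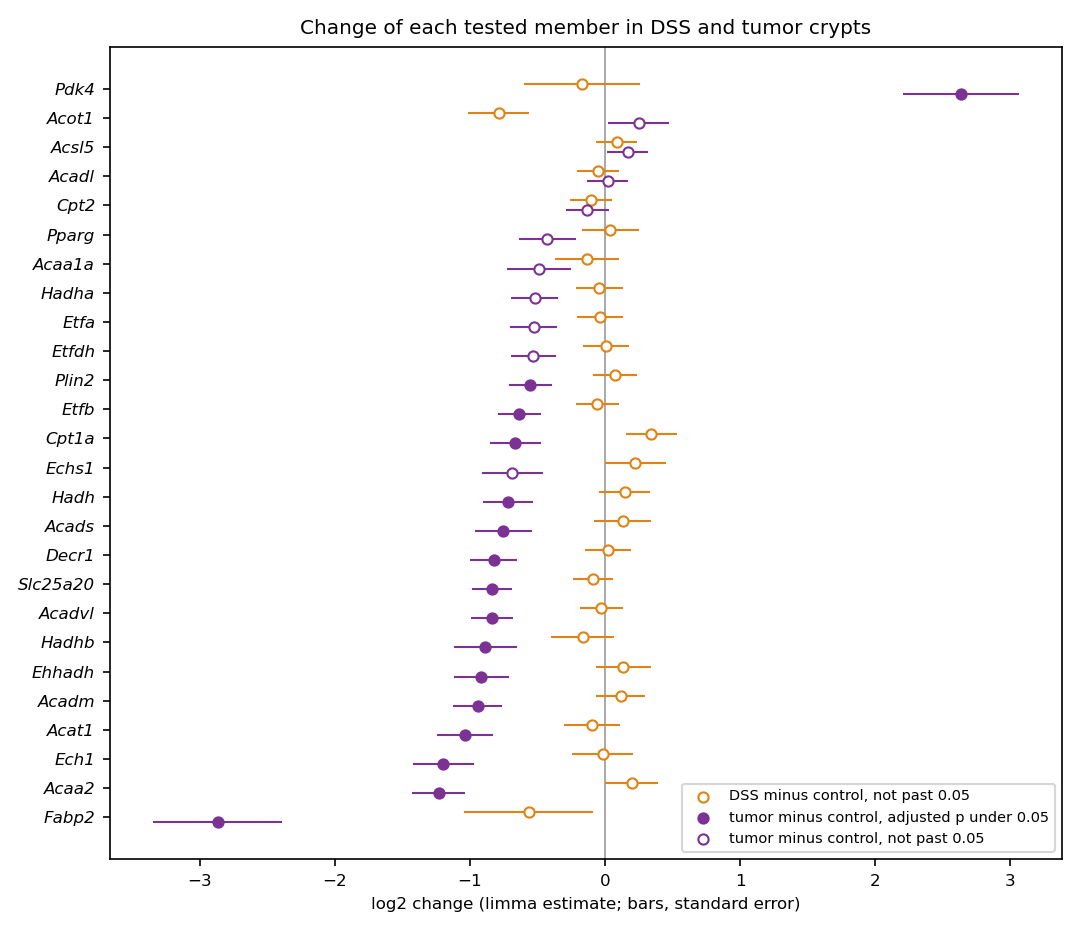
Log2 change of each tested member in DSS (orange) and tumor (purple) crypts against control, from the fit of all 3 groups; bars are standard errors and filled symbols passed an adjusted p under 0.05. No DSS change is filled, whereas 15 tumor changes are filled on the left of 0, from Fabp2 at -2.87 to Plin2 at -0.55, and 1, Pdk4, on the right at 2.64.

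Of 11 enzymes of the mitochondrial rounds, 8 fell, with a median log2 change of -0.82. Acaa2, the 3-ketoacyl-CoA thiolase of the last step, measured 1318 and 1718 in control, 1544 and 1938 in DSS, and 647 and 614 in tumor crypts. Its tumor level was 41.5% of control, or -1.23 ± 0.20 (SE, adjusted p = 0.00366) in log2. Acat1, the acetoacetyl-CoA thiolase that also acts in ketone body and isoleucine breakdown, measured 4329.5 and 5021 in control, 4286 and 4454 in DSS, and 2777 and 1855 in tumor crypts, a change of -1.03 ± 0.21 (SE, adjusted p = 0.0100). For both thiolases each tumor array lay below every control and DSS array. The call of Acaa2 held under all 17 alternatives run on single genes, and that of Acat1 ended without control replicate 2 (-0.88).

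Of the 4 acyl-CoA dehydrogenases, which share the 1st step by chain length, 3 fell. Acadvl, for very long chains, measured 1909 and 1884 in control, 1812 and 1914 in DSS, and 1127 and 985 in tumor crypts, a change of -0.84 ± 0.16 (SE, adjusted p = 0.0073). Acadm, for medium chains, measured 4265 and 4903 in control, 4963 and 4959 in DSS, and 2742 and 2049 in tumor crypts, with a change of -0.94 ± 0.18 (SE, adjusted p = 0.00802). Acads, for short chains such as butyrate, measured 1490.1 and 1036 in control, 1476 and 1258 in DSS, and 787 and 679 in tumor crypts and changed by -0.75 ± 0.21 (SE, adjusted p = 0.0374). For all 3 the tumor values lay below the others. The call of Acadvl held under all 17 alternatives, that of Acadm ended without control replicate 2 (-0.84), and that of Acads without control replicate 1 (-0.49), tumor replicate 1 (-0.86), tumor replicate 2 (-0.65) or either DSS array (-0.75). Acadl, for long chains, measured 3835 and 3577 in control, 3669.8 and 3477 in DSS, and 4049 and 3481 in tumor crypts, so that the groups overlapped, with a change of 0.019 ± 0.15 (SE, adjusted p = 0.942). Its sign turned with each array centred on its median (-0.23), without control replicate 2 (-0.031) and without tumor replicate 1 (-0.089). Whether Acadl differs from the other dehydrogenases was not tested.

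Of the 5 other enzymes of the rounds, 3 fell. Hadhb, the thiolase subunit of the trifunctional protein, measured 3577 and 5063 in control, 3127 and 4612 in DSS, and 2359.8 and 2229 in tumor crypts, a change of -0.89 ± 0.23 (SE, adjusted p = 0.0289). Its partner Hadha, whose upstream window overlaps that of Hadhb, measured 873 and 979 in control, 844 and 955 in DSS, and 594 and 688 in tumor crypts, and its change of -0.52 ± 0.17 (SE, adjusted p = 0.0648) did not pass. Both genes were lower on each tumor array than on any other array. Hadh, the 3-hydroxyacyl-CoA dehydrogenase of shorter chains, measured 10841 and 11039.7 in control, 13210.2 and 11096 in DSS, and 7878 and 5602 in tumor crypts, a change of -0.72 ± 0.19 (SE, adjusted p = 0.0287). Echs1, the enoyl-CoA hydratase of the 2nd step, measured 2145 and 2409 in control, 2900.4 and 2436 in DSS, and 1759 and 1125 in tumor crypts, and its change of -0.68 ± 0.23 (SE, adjusted p = 0.0642) did not pass. Decr1, a reductase needed for unsaturated fatty acids, measured 2177 and 2669 in control, 2424 and 2472 in DSS, and 1462 and 1253 in tumor crypts, a change of -0.82 ± 0.17 (SE, adjusted p = 0.0116). The tumor arrays of Echs1 stood farthest apart by ratio among these 5, and it passed without tumor replicate 1 (-1.0). The call of Hadhb ended without control replicate 2 (-0.64), tumor replicate 1 (-0.93) or tumor replicate 2 (-0.85). That of Hadh ended without control replicate 1 (-0.73), control replicate 2 (-0.71) or tumor replicate 2 (-0.47), and that of Decr1 without control replicate 2 (-0.68) or tumor replicate 2 (-0.71).

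Of the carnitine shuttle, 2 of 3 genes fell. Slc25a20, the carnitine-acylcarnitine carrier of the inner membrane, measured 4628 and 4876 in control, 4639 and 4297 in DSS, and 2771 and 2536 in tumor crypts, a change of -0.84 ± 0.15 (SE, adjusted p = 0.00555). Cpt1a, which makes acylcarnitines at the outer membrane and is known as the controlled step of entry, measured 1448 and 1114 in control, 1740.2 and 1503 in DSS, and 847 and 746 in tumor crypts, a change of -0.66 ± 0.19 (SE, adjusted p = 0.0385). Both were lower on each tumor array than elsewhere. The call of Slc25a20 held under all 17 alternatives, and that of Cpt1a ended without control replicate 1 (-0.48), tumor replicate 1 (-0.75), tumor replicate 2 (-0.57) or either DSS array (-0.66), and as the mean over its probe sets (-0.67). Cpt2, which returns acyl groups to CoA inside, measured 1059 and 1042 in control, 1014 and 939.7 in DSS, and 924 and 994 in tumor crypts, and its change of -0.13 ± 0.16 (SE, adjusted p = 0.591) did not pass.

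Of 3 electron transfer genes, 1 fell. Etfb, a subunit of electron transfer flavoprotein, measured 2442 and 2624 in control, 2471 and 2401 in DSS, and 1764 and 1494 in tumor crypts, a change of -0.64 ± 0.16 (SE, adjusted p = 0.0242). Its partner subunit Etfa measured 2986 and 3133 in control, 3106 and 2862 in DSS, and 2418 and 1857 in tumor crypts, with a change of -0.53 ± 0.17 (SE, adjusted p = 0.0639). Etfdh, which hands the electrons to ubiquinone, measured 1571 and 1493 in control, 1567 and 1512 in DSS, and 1176 and 947 in tumor crypts, with a change of -0.53 ± 0.17 (SE, adjusted p = 0.0564). For all 3 the tumor arrays lay below the other 4, and the changes of Etfa and Etfdh missed the threshold, which both passed without tumor replicate 1 (-0.71 and -0.68). The call of Etfb ended without control replicate 1 (-0.69), control replicate 2 (-0.58), tumor replicate 2 (-0.52) or either DSS array (-0.64).

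Of 3 peroxisomal genes, 2 fell. Ech1, a dienoyl-CoA isomerase found in peroxisomes and mitochondria, measured 3702 and 4962 in control, 4278 and 4197 in DSS, and 2285 and 1515 in tumor crypts, a change of -1.20 ± 0.23 (SE, adjusted p = 0.00788). Ehhadh, the bifunctional enzyme of the peroxisomal pathway and a known PPAR alpha target, measured 576 and 499.7 in control, 648 and 538 in DSS, and 317 and 240.3 in tumor crypts, a change of -0.92 ± 0.20 (SE, adjusted p = 0.0155). Neither overlapped with control. The call of Ech1 ended without control replicate 2 (-0.99), and that of Ehhadh without control replicate 1 (-0.82) or tumor replicate 2 (-0.73). Acaa1a, the peroxisomal thiolase, measured 430.3 and 340.5 in control, 378 and 319 in DSS, and 325 and 219 in tumor crypts, and its change of -0.49 ± 0.24 (SE, adjusted p = 0.175) did not pass. Its probe sets carry probes that may match similar transcripts, such as the paralog Acaa1b, so its value is uncertain. The second probe set of Acaa1a, given below, did pass.

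Fabp2, the intestinal fatty acid-binding protein of absorptive cells, showed the lowest tumor level relative to control of all tested members. It measured 3374 and 3128 in control, 1744 and 2754 in DSS, and 794 and 229 in tumor crypts, which left 15.7% of the control mean and corresponded to -2.87 ± 0.48 (SE, adjusted p = 0.00456) in log2. The tumor arrays differed from each other by more than those of control, and the change was -3.72 without tumor replicate 1 and -2.01 without tumor replicate 2. Its call held under all 17 alternatives. Plin2, which coats lipid droplets and is a PPAR target, measured 2543 and 2522 in control, 2909.9 and 2446 in DSS, and 1646 and 1798 in tumor crypts, a change of -0.55 ± 0.16 (SE, adjusted p = 0.0405). The call of Plin2 ended when any 1 array was left out, with values of -0.55 and -0.56 without control replicates 1 and 2, -0.49 and -0.62 without tumor replicates 1 and 2, and -0.55 without either DSS array.

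Neither of the tested genes that form or cleave acyl-CoA passed. Acsl5, an acyl-CoA synthetase of the intestine, measured 1586 and 1469 in control, 1669 and 1579 in DSS, and 1727 and 1710.0 in tumor crypts, with a change of 0.17 ± 0.15 (SE, adjusted p = 0.459) whose sign turned with each array centred on its median (-0.079). Acot1, a cytosolic thioesterase that releases free fatty acids from CoA and is known as a PPAR alpha target, measured 157 and 168 in control, 91.3 and 82.0 in DSS, and 212 and 182 in tumor crypts, with a change of 0.25 ± 0.23 (SE, adjusted p = 0.463). Both were higher on each tumor array than on any control array. Acot1 and its tandem neighbour Acot2 are close paralogs, and cross-hybridization between them was not tested.

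Pdk4, a kinase that switches off pyruvate dehydrogenase and is a textbook PPAR target, was the member that rose. It measured 17.1 and 32.4 in control, 13.0 and 27.2 in DSS, and 173 and 336 in tumor crypts, and its tumor values were above those of all other arrays. Replicate 2 was the higher array of Pdk4 in each group, as it was for the summed endothelial, fibroblast and smooth muscle markers given below. The part of such cells in the Pdk4 values was not tested. The log2 change was 2.64 ± 0.43 (SE, adjusted p = 0.0041), 3.30 where the pseudocount was 1 and 1.42 where it was the median intensity, and its control and DSS values lay far below the array medians. The call of Pdk4 is conditional on its tumor values being high, because no other group took it past the filter, and with only 1 tumor array it was not tested. With no filter on low values its adjusted p was 0.00884 (limma). Pparg, a PPAR of colonic epithelium, measured 649 and 524 in control, 643 and 560.4 in DSS, and 503 and 366 in tumor crypts, with a change of -0.43 ± 0.21 (SE, adjusted p = 0.184) that did not pass. Ppard, a further PPAR that is not a member, lay below the filter and was not tested. Ppara measured 69.8 and 44.8 in control, 36.8 and 78.4 in DSS, and 16.2 and 19.7 in tumor crypts, below the array median on every array and lower on both tumor arrays than on the other 4, and was not tested.

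The other members below the filter were dim in every group. Probe sets of Cd36, a fatty acid transporter of endothelium, fat and macrophages, ranged from 1.46 to 90.5. Its brightest probe set read 14.4 and 90.5 in control, 20.6 and 75.7 in DSS, and 19.0 and 50.4 in tumor crypts, so that replicate 2 was the higher array in each group. Fabp1, the liver-type fatty acid-binding protein, ranged from 1.69 to 15.7, Angptl4, a secreted inhibitor of lipoprotein lipase, from 0.230 to 41.1, and Acot2, the mitochondrial thioesterase, from 14.4 to 33.1. For comparison with Cd36, summed adipocyte markers were 135 to 145 on replicate 1 arrays and 465 to 538 on replicate 2 arrays, with 1 of 7 measured (Fabp4) above the filter and Adipoq between 0.844 and 5.11. Summed endothelial markers were 226 to 441 on replicate 1 arrays and 425 to 1378 on replicate 2 arrays, with 1 of 9 (Esam) above the filter. Their part in the Cd36 values was not tested.

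Several members had more than 1 probe set above the filter, which gives a further measure on the same arrays. All 20 probe sets of these 8 genes were lower in tumor crypts, and the probe set used for each gene is among them. When every probe set was tested on its own, 17 of the 20 passed, against 2258 of all 11194. The tested probe sets of Hadhb and Hadh can share probes with similar transcripts, and their probe sets without that mark gave -0.91 ± 0.20 for Hadhb and -0.89 ± 0.19 for Hadh. A dim probe set of Hadh gave -1.90 ± 0.33, and the mean over its probe sets was -1.17. The tested probe set of Acaa2 is shared between transcripts, and its others gave -1.05 ± 0.17 and -1.14 ± 0.23. For Acaa1a the second probe set gave -1.28 ± 0.22 against -0.49 on the tested one. It passed on its own (adjusted p = 0.0053, limma), and Acaa1a also passed as the mean over its probe sets. The result for Acaa1a thus depends on the probe set chosen. A probe set of Cpt1a read 421 and 1485 in control, 654 and 1259.8 in DSS, and 450.4 and 454 in tumor crypts, where the control arrays differed by more than those of the tested probe set, and it did not pass with -0.79 ± 0.52. The third probe set of Cpt1a gave -0.56 ± 0.23 and did not pass either, so the call of Cpt1a rests on 1 of its 3 probe sets.

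**Figure D3:**
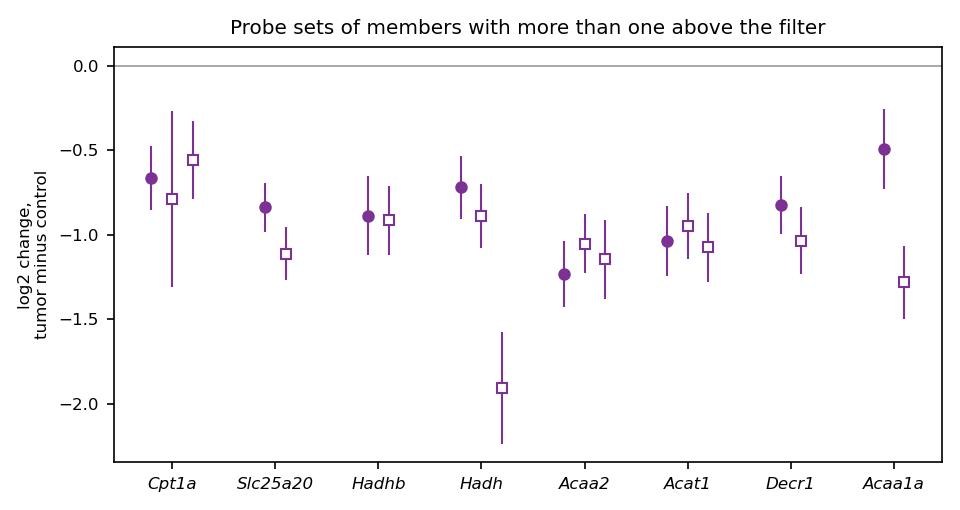
Log2 change, tumor minus control, of the 20 probe sets of the 8 members with more than 1 above the filter, with standard errors from the fit of every probe set; filled circles are the probe sets used for the gene and open squares the others. All lie below 0, and Hadh and Acaa1a show the widest gaps between probe sets.

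The number of members past the test depended on single arrays and fell with any 1 array left out. The members' median log2 change was -0.64 without either control array, -0.86 without tumor replicate 1 and -0.62 without tumor replicate 2. It was -0.67 without either DSS array, which adds only to the estimate of spread. Over all genes these medians lay between 0.0080 and 0.063. With a tumor array left out, 25 members were tested. Without the filter 11 of 31 members passed, against 1444 of 12393 genes. Without an intensity trend 12 of 26 passed, against 1551 of 7456 genes, and with only control and tumor arrays in the fit 12, against 1344. At unchanged log2 values, Plin2, Cpt1a and Acads lost their calls under each of these 3 settings, Hadh without the filter or the trend, Hadhb without the filter, and Etfb with only 2 groups. With arrays centred on their medians 20 members passed, among them Hadha (-0.77), Echs1 (-0.93), Etfa (-0.77) and Etfdh (-0.78), against 1878 of 7456 genes. That scaling moved the median of all genes from 0.046 to -0.20 and that of the members to -0.92, and quantile normalization gave -0.68 for the members.

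Other genes of the pathway came from lists drawn up by function, with earlier results of these data known. Among 32 tested further fatty acid oxidation genes, 8 fell and 1 rose, with a median of -0.45. The list also holds genes known for breakdown of branched-chain amino acids and propionate. Acadsb, Ivd, Pcca and Mcee, named after the values were seen, are such genes and were among those that fell. The thioesterase Acot13 fell as well. Of these genes, only Pcca kept its call whichever array was left out. The share called was 28.1%, near the 22.5% of all genes, and the share that fell was 25%, against 9.74%. Acss2, an acetyl-CoA synthetase, was counted in this list and not in that of fatty acid synthesis genes below. It measured 2442 and 2401 on control arrays and 1072 and 803 on tumor arrays, a change of -1.37 ± 0.19 (SE, adjusted p = 0.00221). Eci3, an enoyl-CoA isomerase of peroxisomes, measured 469 and 610.3 on control arrays and 173 and 81.1 on tumor arrays, a change of -2.01 ± 0.33 (SE, adjusted p = 0.00404). Acad11, an acyl-CoA dehydrogenase, changed by -0.97 ± 0.19 (SE, adjusted p = 0.00879), a call that ended without control replicate 2 (-0.77). The gene that rose was Acsl4, a synthetase for polyunsaturated fatty acids such as arachidonate, chosen after its values were seen, at 1.02 ± 0.27 (SE, adjusted p = 0.0287). Its call ended without control replicate 1 (1.01), control replicate 2 (1.04) or tumor replicate 2 (0.60).

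Of the 3 tested ketone body and monocarboxylate genes, 2 fell. Slc16a1, a monocarboxylate transporter that takes up butyrate, measured 7493 and 8085 on control arrays and 3719.6 and 3187 on tumor arrays, a change of -1.17 ± 0.15 (SE, adjusted p = 0.00124). Oxct1, which activates ketone bodies for oxidation, changed by -0.89 ± 0.18 (SE, adjusted p = 0.0105), and its call ended without control replicate 2 (-0.90) or tumor replicate 2 (-0.68). Bdh1, which interconverts ketone bodies, changed by -0.58 ± 0.28 (SE, adjusted p = 0.168) and did not pass. Of 14 tested PPAR targets and partners outside the members, 5 fell and 0 rose (35.7% called, against 22.5% of all genes), with a median of -0.48. Fabp4 and Cidec of this list, and Lipe of the oxidation list, are also adipocyte markers. Pck1, a gluconeogenic PPAR target, measured 576 and 786 on control arrays and 218 and 126 on tumor arrays, a change of -1.91 ± 0.26 (SE, adjusted p = 0.00196). Ppargc1b, a coactivator of PPARs, measured 948 and 792 on control arrays and 359 and 377 on tumor arrays, a change of -1.20 ± 0.17 (SE, adjusted p = 0.00242), and Pex11a, a peroxisome division gene, changed by -1.14 ± 0.21 (SE, adjusted p = 0.00695). The remaining pair, chosen after the values were seen, was the coactivator Ppargc1a at -1.02 ± 0.23 and the receptor Hnf4a at -0.74 ± 0.22. The call of Ppargc1a ended without control replicate 1 (-0.91) or tumor replicate 2 (-0.93), and that of Hnf4a ended without control replicate 1 (-0.47), DSS replicate 1 (-0.74), tumor replicate 1 (-0.87) or tumor replicate 2 (-0.60).

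General mitochondrial genes were measured for comparison. Of 22 tested genes of respiratory chain, citrate cycle and protein import, 3 fell and 0 rose, 20 changes were negative, and the median was -0.29. The share that fell, 13.6%, was near the 9.74% of all genes. These were Sdhb at -0.84 ± 0.21, Ndufs1 at -0.65 ± 0.17 and Uqcrc2 at -0.60 ± 0.17, subunits of respiratory complexes. Each of the 3 calls ended without control replicate 1 (-0.95, -0.75 and -0.67), control replicate 2 (-0.73, -0.55 and -0.54) or tumor replicate 2 (-0.56, -0.49 and -0.42). Those of Ndufs1 (-0.65) and Uqcrc2 (-0.60) also ended without DSS replicate 1, and that of Ndufs1 without DSS replicate 2. Set against DSS crypts, 6 of the 22 genes were lower and 1 higher in tumor crypts past the test, with a median of -0.33. The share lower was 27.3%, against 11.3% of all genes. The difference between this list and the members was not tested.

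Of 14 tested fatty acid synthesis genes, 6 rose and 0 fell, with a median of 0.12. Without Fads1, which met the filter only through the tumor arrays, 5 of 13 rose (38.5%) and the median was -0.064. Of the 7145 genes left without those that met the filter through 1 group, 9.9% rose. Fads1, a desaturase of polyunsaturated fatty acids, measured 72.1 and 69.3 on control arrays and 389.5 and 825 on tumor arrays, a change of 2.73 ± 0.34 (SE, adjusted p = 0.00119). Scd1, a desaturase that makes oleate, measured 403 and 217 on control arrays and 1045 and 2178 on tumor arrays, a change of 2.28 ± 0.38 (SE, adjusted p = 0.00434), and Elovl5, an elongase, changed by 0.90 ± 0.19 (SE, adjusted p = 0.0126). Elovl5 ended its call with each array centred on its median (0.66), without control replicate 2 (0.67) and without tumor replicate 2 (0.85). The other 3, outside the rule for named genes, were Acsl4, which is also in the oxidation list, Srebf1, a transcription factor of lipid synthesis, and Fasn, the fatty acid synthase. Srebf1 changed by 1.25 ± 0.30 and Fasn by 1.44 ± 0.40, and their calls ended without control replicate 2 (0.93 and 1.08) or tumor replicate 2 (0.82 and 0.79).

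**Figure D4:**
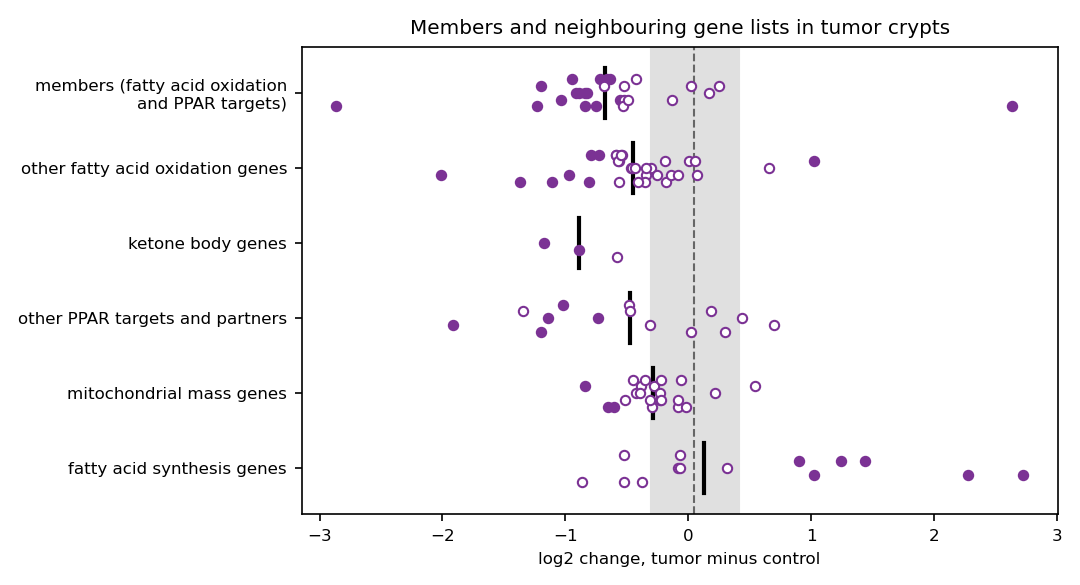
Log2 change, tumor minus control, of the tested genes of the members and of 5 further lists; filled points passed an adjusted p under 0.05, black bars are list medians, the dashed line is the median of all 7456 genes (0.046) and the grey band their middle range from the 25th to the 75th percentile. The medians of members (-0.67), other oxidation genes (-0.45), ketone body genes (-0.89) and other PPAR targets and partners (-0.48) lie left of the band, and that of fatty acid synthesis genes (0.12, or -0.064 without Fads1) inside it. That of general mitochondrial genes (-0.290) lies just inside the left edge of the band (-0.299).

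Markers of differentiated and of other cells moved beside these changes. Of 12 tested absorptive colonocyte markers, 7 fell in tumor crypts, with a median of -1.55, and their summed intensity was 66857 and 69706 in control, 56095 and 63380 in DSS and 27988 and 28096 in tumor crypts. Of 6 goblet cell markers, 5 fell, with sums of 73109 and 75548 in control, 85268 and 76580.4 in DSS, and 50916 and 37286 in tumor crypts. Of 6 crypt base stem cell markers, 4 rose, or 3 of 5 without Lgr5, which met the filter only through the tumor arrays, with sums of 7788 and 8718 in control, 6825 and 6659 in DSS, and 12051 and 13001 in tumor crypts. Summed myeloid markers were 2083 and 2494 in control, 1880.2 and 2498 in DSS, and 5292 and 10314 in tumor crypts, with 5 of 10 above the filter and 2 of those past the test, both higher. Fibroblast sums were 2192 and 4357 in control, 2983 and 5438 in DSS, and 6329.6 and 13507 in tumor crypts, with 9 of 10 above the filter. Of these, 1 passed, Mgp, which was higher, and 6 of the 9 changes were negative. Mgp read 5199 and 6073 on the tumor arrays, against 21.6 and 119 on the control arrays. It made up most of the fibroblast sum on tumor replicate 1, where the remainder lay below both control sums. On tumor replicate 2 the remainder lay above them. Most of the myeloid sum on each tumor array came from the 2 genes past the test, Lyz2 (2755 and 5154) and Cd14 (2020 and 2645). Such sums rest on few bright genes and do not measure numbers of cells. Smooth muscle sums were 732 and 3778 in control, 1281 and 3609 in DSS, and 391 and 1231 in tumor crypts, with 0 of 6 past the test and 1 of 6 at an unadjusted p under 0.05. The part of these cells, and of the lower 3' to 5' ratios of the tumor arrays, in the fall of the oxidation genes was not tested.

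The second question was whether the pathway responds early to epithelial injury. In DSS crypts 0 of the 26 tested members passed in limma, as did 0% of all genes, and the members' median log2 change was -0.021 against 0.0045 over all genes. At an unadjusted p under 0.05 there was 1 member, Acot1, against 2.53% of all genes. The groups did not overlap for 4 members higher in DSS and 3 lower, against 12.8% and 13.7% of all genes. Acot1 had a change of -0.79 ± 0.23 (SE, adjusted p = 0.9999), with both DSS arrays below both control arrays. Cpt1a had a change of 0.34 ± 0.19 (SE, adjusted p = 0.9999), with both DSS arrays above both control arrays. On its other probe sets the groups overlapped (0.19 ± 0.52 and 0.054 ± 0.23). Fabp2 had a change of -0.56 ± 0.48 (SE, adjusted p = 0.9999), and DSS replicate 1, at 1744, lay farther below the control arrays than DSS replicate 2, at 2754. With only control and DSS arrays fitted and the replicate number as a block, 124 genes passed, Fabp2 the 1 member among them (adjusted p = 0.0275, limma, 1 residual degree of freedom). Acaa2, next by p, had a change of 0.20 ± 0.20 (SE, adjusted p = 0.9999) with overlapping groups. Between arrays of the same number the members' median was -0.000144 for the arrays numbered 1 and -0.042 for those numbered 2. A p that misses the threshold does not show that DSS left these genes as they were. The members' standard errors were 0.15 to 0.48. Over all genes, changes from -1.86 to 2.07 in log2 did not pass, so large changes could be missed as well as small ones.

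Tumor crypts were also set against DSS crypts, a comparison that shares the tumor arrays with the comparison above. Of the 26 members 16 were lower and 2 higher past the test, or 69.2%, against 26.2% of all genes (11.3% lower, 14.8% higher), and the median was -0.74 against 0.045. Without genes that met the filter through 1 group, Pdk4 among them, 17 of 25 members passed, against 23.7% of 7145 genes. At an unadjusted p under 0.05 there were 21 members, against 38.6% of all genes. Groups did not overlap for 20 members lower in tumor crypts and 3 higher, against 30.7% and 35.3% of all genes. Acaa2 differed by -1.43 ± 0.20 (SE, adjusted p = 0.00164), Ech1 by -1.18 ± 0.23 (SE, adjusted p = 0.00746), Acadm by -1.06 ± 0.18 (SE, adjusted p = 0.0044) and Fabp2 by -2.30 ± 0.48 (SE, adjusted p = 0.0102), and Pdk4 was higher by 2.80 ± 0.43 (SE, adjusted p = 0.00265). Cpt1a differed by -1.01 ± 0.19 (SE, adjusted p = 0.00678), a call that ended without DSS replicate 1 (-0.90). Its other probe sets, tested on their own, gave -0.98 ± 0.52 and -0.61 ± 0.23 and did not pass. Acot1, low in DSS crypts, was higher in tumor crypts by 1.04 ± 0.23 (SE, adjusted p = 0.0123), but not without DSS replicate 1 (1.10), DSS replicate 2 (0.97) or tumor replicate 1 (0.94). The members' median was -0.72 without DSS replicate 1, -0.76 without DSS replicate 2, -0.81 without tumor replicate 1 and -0.65 without tumor replicate 2. Over all genes these medians lay between -0.0041 and 0.055, and fewer members were called in each of these settings. Centring arrays on their medians moved the median of all genes to -0.19 and the share of higher genes among those called from 56.8% to 35.7%. In that setting 20 members were called, against 1954 of 7456 genes.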

How the data were processed

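The deposited table holds intensities per probe set for 6 arrays, made by the authors with MAS5 per the submitters' processing notes; its version and settings are not given in the sources used here. Each array's trimmed mean, with 2% left out at either end, was near 500.2, computed from the values. Of 22690 probe sets, 64 were controls, 20380 had 1 symbol, 691 several and 1555 none. Values became log2 (intensity + 17.8, the 25th percentile). The filter left 12146 probe sets with at least 2 arrays above their median, and the probe set of highest mean stood for each gene (7456). limma 3.58.1 (R 4.3.3) fitted all 3 groups with an intensity trend, 2-sided, Benjamini-Hochberg threshold 0.05, and was tested on simulated data. Members and lists were chosen with earlier results of these data known. Named genes were the called members, the 4 of smallest p in DSS, fixed members, and the top 3 of each further list. Replicate numbers recur in each group, and the labels do not say whether same-numbered pools were processed together, so the main fit is unpaired. Deviations of same-numbered arrays from their group means correlated at 0.448 (control, DSS), 0.0760 (control, tumor) and 0.441 (DSS, tumor). Alternatives covered scaling, pseudocount, filter, probe sets, trend, groups fitted, replicate block and each array left out. Promoter sequences are RefSeq's (GRCm38.p6). Figures used Python 3.11.15 and matplotlib 3.10.9.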

Additional observations from a re-analysis of the deposited data

How the results depend on the processing

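Over all 18 alternatives the median log2 change of the members ranged from -0.92 to -0.62 for tumor against control and from -0.97 to -0.63 for tumor against DSS. For tumor against control, 26 of the 38 probe sets of members above the filter passed when every probe set was tested on its own, against 2258 of all 11194. Members past the test numbered 7 to 14 with 1 array left out, and genes numbered 1099 with the 75th percentile filter and 702 to 1382 with 1 array left out. For tumor against DSS, members numbered 6 to 18 and genes 903 to 1923 with 1 array left out, and genes numbered 1260 with the 75th percentile filter. For DSS against control, 0 to 2 genes and 0 members passed with 1 array left out. With the replicate number as a block in the fit of 3 groups, 1944 and 2208 genes and 18 and 19 members passed in the tumor comparisons, and 0 genes in DSS. With only the 2 groups compared and that block, added after the data were seen, DSS called 124 genes and 1 member (Fabp2), and tumor against DSS 2940 genes; these fits have 1 residual degree of freedom. In tumor against control the uncalled sign of Acadl turned with median centring (-0.23) and, with 1 array left out, ranged from -0.089 to 0.13, and that of Acsl5 turned with median centring (-0.079). The cause of these shifts was not tested. Fits that leave a group with 1 array take its spread from the other groups. No detection calls were used here, so signal near background limits Ppara, Cd36, Fabp1, Acot2, Angptl4 and the control level of Pdk4.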
